A study of Rattus norvegicus with 12 samples.

Results

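The genes described are a list of 50 genes of the endoplasmic reticulum (ER) folding machinery and the unfolded protein response, followed in rat aortic vascular smooth muscle cells given angiotensin II (Ang II). The list was drawn up by gene function, with earlier results of these data known. It covers chaperones, disulfide isomerases, stress sensors, degradation factors, the translocon and parts of the export coat. A listed gene counted as measured where an array probe set carried its symbol and no other, and 44 of the 50 were measured, among 14506 genes in all. Txndc5, Ero1b, Ern1, Edem1, Derl2 and Sec23b were not analysed here, which leaves out the sensor IRE1 (Ern1). Each measured member was read by 1 probe set.

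RNA was profiled on 12 Affymetrix Rat Gene 1.0 ST arrays, 3 for each of 4 groups. All cells came from the aorta of Sprague-Dawley rats and were kept without serum for 48 h. The control group received no Ang II, and the other groups received 100 nM Ang II, a peptide hormone that constricts vessels and drives growth of smooth muscle, for 6, 12 or 24 h. The titles and the design text give these times, whereas the treatment text of the same samples gives 1, 3 or 24 h. Untreated cells kept for the same added hours were not analysed here, so the effect of Ang II and that of time in culture cannot be told apart. Arrays within a group are labelled as biological replicates, but no separate animals or cultures are named, so the p-values reflect only the array-to-array spread, which may be technical.

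Proteins bound for the cell surface, the matrix or secretion enter the ER through the Sec61 channel and fold there with the help of Hsp70 and Hsp90 chaperones, lectin chaperones and disulfide isomerases. When folding capacity is exceeded, the membrane sensors ATF6, IRE1 and PERK start the unfolded protein response. ATF6 moves to the Golgi and is cut there by the proteases encoded by Mbtps1 and Mbtps2, and its freed part switches on chaperone genes. IRE1 splices the mRNA of Xbp1, and PERK slows translation and raises ATF4. Smooth muscle cells that make matrix carry a large load of collagen and other secreted proteins through this route.

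The promoters of ER chaperone genes are known for the ER stress response element (ERSE), at which ATF6 binds together with the CCAAT-binding factor NF-Y. RefSeq windows of GRCr8, running from 250 bases before to 50 bases after an annotated start, were held for 35 of the 44 measured members. No window was held for Atf6, Sec24d, Manf, Ero1a, Pdia3, Sec61a1, Kdelr2, Derl1 or Pdia6. Both strands were searched for the ERSE, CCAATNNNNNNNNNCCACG, and for ERSE-II, ATTGGNCCACG. The sites found in members are shown here because they are the sequence feature by which the chaperone genes are usually grouped. Each is written 5′ to 3′ on the strand that reads the motif, with the fixed motif letters in capitals and the spacer in lower case, and the first 9 are ERSE sites and the last 4 ERSE-II sites.
Hspa5, chr3:38452973-38452991, plus strand: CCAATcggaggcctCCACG
Hsp90b1 upstream site, chr7:23012451-23012469, minus strand: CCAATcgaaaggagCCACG
Hsp90b1 downstream site, chr7:23012347-23012365, plus strand: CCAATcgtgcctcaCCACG
Creld2, chr7:121789239-121789257, minus strand: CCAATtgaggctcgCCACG
Dnajc3, chr15:102432534-102432552, plus strand: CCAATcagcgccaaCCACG
Xbp1, chr14:84604558-84604576, plus strand: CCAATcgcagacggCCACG
Calr, chr19:40213135-40213153, minus strand: CCAATcagggtcgaCCACG
Canx, chr10:35158069-35158087, minus strand: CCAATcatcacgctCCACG
Derl3, chr20:12766601-12766619, plus strand: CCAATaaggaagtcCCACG
Herpud1, chr19:10614821-10614831, minus strand: ATTGGgCCACG
Dnajb11, chr11:91672800-91672810, minus strand: ATTGGcCCACG
Hyou1 upstream site, chr8:53602694-53602704, minus strand: ATTGGcCCACG
Hyou1 downstream site, chr8:53602794-53602804, minus strand: ATTGGgCCACG

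The ERSE was found in the windows of 8 of the 35 members (22.9%), against 22 of all 33469 windows (0.0657%). ERSE-II was found in 3 of the 35 members (8.57%), against 17 of all windows (0.0508%). The 5-letter CCAAT box, which is part of the ERSE and, on the other strand, of ERSE-II, lay in 23 of the 35 (65.7%), against 37.5% of all windows. TGACGTGG, the letters of the unfolded protein response element, was found in Hyou1, Kdelr3 and Txndc11 and in 0.595% of all windows, and in Hyou1 it overlaps the upstream ERSE-II. The cAMP response element TGACGTCA was found in the window of no member and in 1.83% of all windows. Members were counted by gene and the background by window, with the members' own windows among all windows. The ERSE is the feature by which chaperone genes are usually grouped, so its share among the members describes the list and is not a test. A match describes these letters only, and a window without a match says nothing about the factor. In Hspa5 the ERSE lies 43 to 25 bases before the start, and Hsp90b1 carries an ERSE on each strand. The 250 bases before the start of these genes are printed 5′ to 3′ on the gene's strand, with the ERSE sites in capitals, because their products are the main Hsp70 and Hsp90 of the ER (Hspa5 at chr3:38452766-38453015, plus strand, and Hsp90b1 at chr7:23012294-23012543, minus strand).
Hspa5: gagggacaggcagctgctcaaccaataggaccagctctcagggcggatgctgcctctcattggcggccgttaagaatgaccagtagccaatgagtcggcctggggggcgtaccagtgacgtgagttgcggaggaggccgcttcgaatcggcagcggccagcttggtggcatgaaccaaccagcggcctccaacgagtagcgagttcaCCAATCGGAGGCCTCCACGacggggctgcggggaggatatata
Hsp90b1: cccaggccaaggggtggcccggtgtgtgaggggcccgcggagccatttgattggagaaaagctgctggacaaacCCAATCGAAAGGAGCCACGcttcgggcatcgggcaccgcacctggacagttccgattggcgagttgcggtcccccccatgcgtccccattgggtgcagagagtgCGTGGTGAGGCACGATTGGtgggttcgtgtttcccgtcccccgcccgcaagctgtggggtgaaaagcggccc

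More members were higher than lower at 6 h and 12 h of Ang II, and at 24 h most were not called in either direction. At 6 h, 23 of the 44 (52.3%) were higher than control, against 18.6% of all genes tested, and 5 (11.4%) were lower, against 17.2% of all genes. At 12 h, 19 (43.2%) were higher, against 13.3% of all genes, and 5 (11.4%) were lower, against 13.3%. At 24 h, 9 (20.5%) were higher, against 15.3%, and 6 (13.6%) were lower, against 14.7%. A gene was called here where limma's moderated test gave a Benjamini-Hochberg adjusted p under 0.05 over all 14506 genes. The 3 comparisons share the control arrays, and the counts given for each role group stand against these same shares of all genes. The median log2 difference of the members was 0.13 at 6 h, 0.12 at 12 h and -0.02 at 24 h, and the median of all genes was 0.01, 0.01 and 0.05. The changes were small: Creld2 and Atf6 at 6 h, and Atf6 at 12 h, were the members past 1.5-fold against control. The count of 6 lower at 24 h was 3 without control replicate 1, 13 after a further quantile normalization and 11 with trended and robust variance.

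**Figure D1:**
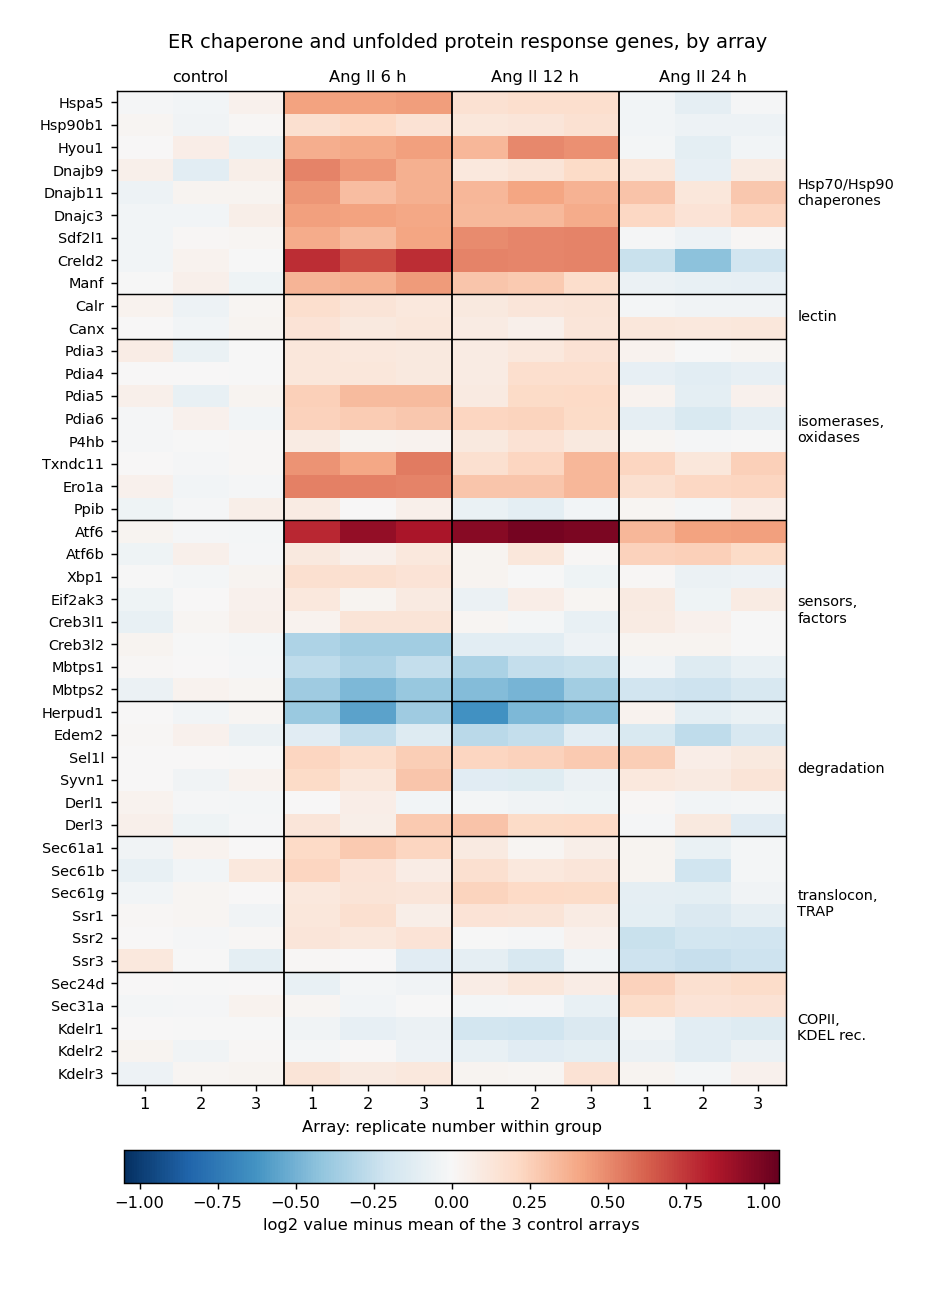
Log2 value of each of the 44 measured members on each of the 12 arrays, minus the mean of the 3 control arrays, with rows ordered by role. The Hsp70 and Hsp90 group is red at 6 h and 12 h, but pale for Hsp90b1 at both times and for Hspa5 and Dnajb9 at 12 h. At 24 h the group is near white except Creld2, Dnajb11 and Dnajc3. Atf6 is red and Mbtps2 blue at all 3 times.

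The Ang II groups were also compared with each other, in the same fit, in which the control arrays enter the estimate of the spread. Between 6 h and 24 h, 23 members (52.3%) fell, against 19.8% of all genes, and 7 (15.9%) rose, against 19.4%. Between 12 h and 24 h, 17 (38.6%) fell, against 13.5% of all genes, and 7 (15.9%) rose, against 14.0%, and after median centring 3 rose. Between 6 h and 12 h, 11 (25.0%) fell, against 13.9%, and 3 (6.82%), which were Sdf2l1, Creb3l2 and Sec24d, rose, against 13.1%. The counts of that last step moved with the setting: 1 member rose without the Ang II 6 h replicate 1, without the Ang II 12 h replicate 2 or in a fit of those groups alone, 5 rose with the filter on dim genes and 6 with trended and robust variance, and 7 fell without the Ang II 6 h replicate 3. In a test of any difference among the 4 groups (limma's F test), 35 of the 44 members passed, against 51.5% of all genes. Of the 25 members higher at 6 or 12 h, 16 were not called at 24 h, 3 (Creld2, Pdia6 and Ssr2) were lower than control at 24 h, and 5 (Dnajb11, Dnajc3, Txndc11, Ero1a and Atf6) were higher at all 3 times. The other of the 25, Canx, was called at 6 h and 24 h.

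**Figure D2:**
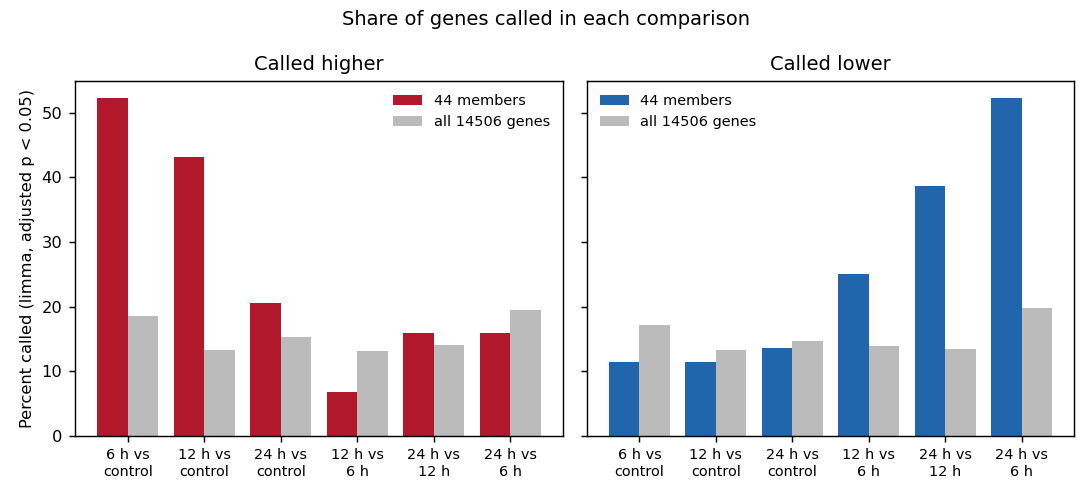
Percent of the 44 members (coloured bars) and of all 14506 genes (grey bars) called higher (left) or lower (right) by limma in each of the 6 comparisons. The members' share called higher is 52.3% at 6 h and 20.5% at 24 h, and their share called lower is highest, at 52.3%, for 24 h against 6 h.

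The Hsp70 and Hsp90 chaperones and their partners moved together. All 9 were higher at 6 h, 8 of the 9 were higher at 12 h, and at 24 h 2 were higher and 1 was lower. Their median log2 difference from control was 0.40, 0.36 and -0.04 at the 3 times. All 9 fell between 6 h and 24 h, where Dnajb11 was close to the threshold. Hspa5, the Hsp70 chaperone of the ER lumen (BiP), had log2 values of 13.34, 13.32 and 13.40 on the control arrays, 13.78, 13.78 and 13.79 at 6 h, 13.51, 13.53 and 13.52 at 12 h, and 13.32, 13.26 and 13.34 at 24 h. The 6 h arrays lay above all others, the 12 h arrays lay between, and the 24 h arrays overlapped the control. The difference was 0.43 ± 0.04 (SE) at 6 h (limma adjusted p = 3.42e-06), 0.17 ± 0.04 at 12 h (adjusted p = 0.00679) and -0.04 ± 0.04 at 24 h (adjusted p = 0.42). Hsp90b1, the Hsp90 of the ER (GRP94), rose less, by 0.18 ± 0.04 at 6 h (adjusted p = 0.00256) and 0.13 ± 0.04 at 12 h (adjusted p = 0.019), and stood at -0.05 at 24 h. Its 12 h call was lost without control replicate 2 or the Ang II 12 h replicate 3 (difference 0.12, adjusted p = 0.0667 to 0.0768). The call of Dnajb11 between 6 h and 24 h (-0.16, adjusted p = 0.0456) was lost without any 1 of 10 arrays, that is all but the Ang II 6 h replicate 2 and the Ang II 24 h replicate 1 (-0.18 to -0.10, adjusted p = 0.0514 to 0.176).

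Creld2, a secreted ER protein with disulfide isomerase activity, had the widest swing of the members. Its log2 values were 9.66, 9.73 and 9.68 on the control arrays, 10.47, 10.38 and 10.47 at 6 h, 10.21, 10.20 and 10.21 at 12 h, and 9.46, 9.26 and 9.49 at 24 h. No group overlapped another, and the 24 h arrays lay below the control. Creld2 rose by 0.75 ± 0.06 at 6 h (1.68-fold, limma adjusted p = 9.42e-07) and 0.52 ± 0.06 at 12 h (adjusted p = 3.5e-05), and at 24 h it was at -0.29 ± 0.06 (adjusted p = 0.00272). From 6 h to 24 h it fell by 1.03 ± 0.06 on the log2 scale (2.05-fold, adjusted p = 7.06e-08). Sdf2l1, a partner of the Hsp70 and J-domain chaperones, was instead higher at 12 h than at 6 h. Its log2 values were 8.82, 8.86 and 8.87 in control, 9.24, 9.19 and 9.26 at 6 h, 9.35, 9.36 and 9.38 at 12 h, and 8.84, 8.80 and 8.86 at 24 h. The 24 h arrays of Sdf2l1 overlapped the control, and the 12 h arrays lay above the 6 h arrays without overlap. The difference of Sdf2l1 from control was 0.38 at 6 h and 0.51 at 12 h (SE 0.04, adjusted p = 9.49e-06 and 1.36e-06). Its step from 6 h to 12 h was 0.13 (adjusted p = 0.0242) and was lost without any 1 of the Ang II 6 h replicates 1 and 2 and the Ang II 12 h replicates 2 and 3 (adjusted p = 0.0537 to 0.091). The step was also lost in a fit of those groups alone and after median centring (limma adjusted p = 0.0704 and 0.0694). Without the 3 arrays of narrowest spread it was 0.12 (adjusted p = 0.115).

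The other members of the group differed in whether they were still called higher at 24 h. Hyou1, a large Hsp70-like chaperone that also exchanges nucleotide on BiP, was at 10.76, 10.82 and 10.68 in control, 11.13, 11.15 and 11.18 at 6 h, 11.10, 11.25 and 11.23 at 12 h, and 10.73, 10.65 and 10.72 at 24 h. Its differences of 0.40 and 0.44 at 6 and 12 h (adjusted p = 7.41e-05 and 5.99e-05) were followed by -0.05 at 24 h. Manf, a secreted factor that binds BiP, rose by 0.39 at 6 h (adjusted p = 2.71e-05) and 0.25 at 12 h (adjusted p = 0.00146), and was at -0.07 at 24 h. Dnajb9, a J-domain partner of BiP (ERdj4), rose by 0.45 at 6 h (adjusted p = 0.000195), while its 0.15 at 12 h did not pass (adjusted p = 0.135). Dnajb11 (ERdj3), a J-domain partner that binds unfolded chains, and Dnajc3 (p58IPK), a J-domain protein also known as an inhibitor of PERK, were the members of the group still higher at 24 h. Dnajb11 was at 10.38, 10.46 and 10.46 in control, 10.90, 10.76 and 10.81 at 6 h, 10.79, 10.85 and 10.80 at 12 h, and 10.74, 10.56 and 10.71 at 24 h. Its differences were 0.39, 0.38 and 0.23 (adjusted p = 0.000156, 0.000344 and 0.00822). Dnajc3 was at 10.48, 10.48 and 10.57 in control and at 10.73, 10.65 and 10.73 at 24 h, and its differences were 0.42, 0.36 and 0.19 (adjusted p = 7.22e-06, 4.71e-05 and 0.00392). In both genes all 9 Ang II arrays lay above all control arrays.

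**Figure D3:**
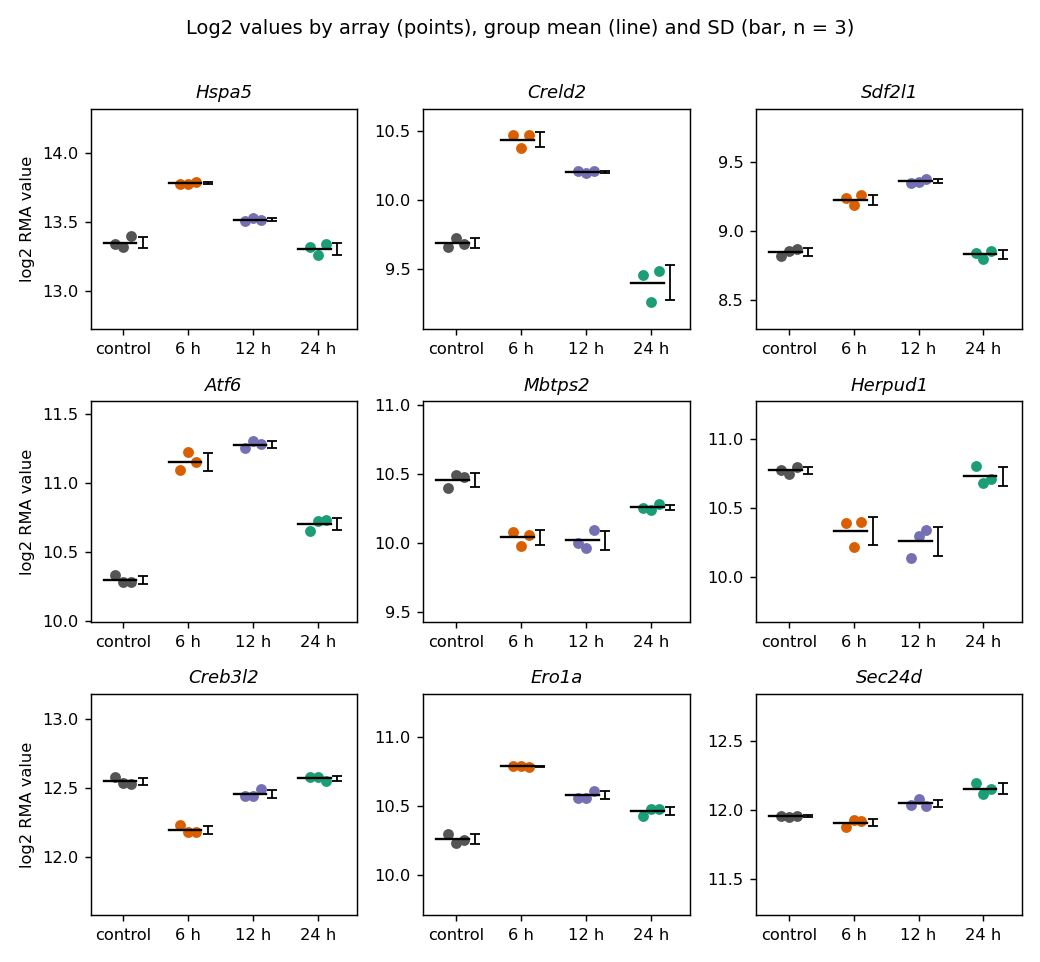
Log2 RMA value on each array (points), with the group mean (line) and SD (bar, n = 3), for 9 members; each panel spans the same range on the log2 axis. The group mean of Hspa5 and of Creld2 is highest at 6 h, and that of Sdf2l1 and of Atf6 at 12 h. Herpud1 and Mbtps2 drop at 6 h and 12 h, and the group mean of Sec24d is highest at 24 h.

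The lectin chaperones, which hold newly made glycoproteins, changed little. Calr, the soluble calreticulin, was at 13.47, 13.38 and 13.46 in control and at 13.61, 13.58 and 13.55 at 6 h, a difference of 0.14 (limma adjusted p = 0.0139), followed by 0.12 at 12 h (adjusted p = 0.0376) and -0.03 at 24 h. Canx, its membrane-bound relative calnexin, was at 0.12 at 6 h (adjusted p = 0.0225), 0.09 at 12 h and 0.12 at 24 h (adjusted p = 0.0346). These calls rested on single arrays. That of Calr at 6 h was lost without control replicate 2 or the Ang II 6 h replicate 1 (adjusted p = 0.0597 to 0.0646). At 12 h it was lost without control replicates 2 or 3, any Ang II 12 h array or the Ang II 24 h replicate 3 (adjusted p = 0.0532 to 0.148). That of Canx at 6 h was lost without control replicates 1 or 2 or the Ang II 6 h replicates 1 or 3 (adjusted p = 0.052 to 0.0841), and at 24 h without any array of either group (adjusted p = 0.0557 to 0.113). The 24 h difference of Canx was 0.05 after a further quantile normalization (adjusted p = 0.3) and 0.09 after centring each array on its median (adjusted p = 0.169).

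Among the disulfide isomerases, oxidases and the prolyl isomerase, 5 of the 8 measured members were higher at 6 h, 6 at 12 h and 2 at 24 h, and 1 was lower at 24 h. Their median log2 difference was 0.19, 0.16 and 0.01. Ero1a, the oxidase that recharges protein disulfide isomerases, moved most, at 10.30, 10.23 and 10.25 in control, 10.79, 10.79 and 10.78 at 6 h, 10.56, 10.56 and 10.61 at 12 h, and 10.43, 10.48 and 10.48 at 24 h. No group of Ero1a arrays overlapped another, and the order ran from 6 h down to control. The differences from control were 0.53, 0.31 and 0.20 (SE 0.04, limma adjusted p = 5.8e-07, 7.75e-05 and 0.00178). The step of Ero1a from 12 h to 24 h, at -0.11, did not pass. It passed with the filter on dim genes, after median centring and with trended and robust variance (adjusted p = 0.0184, 0.0409 and 0.0293). Txndc11, a thioredoxin-domain protein of the ER membrane, was at 9.78, 9.76 and 9.79 in control, 10.25, 10.18 and 10.32 at 6 h, 9.94, 10.00 and 10.12 at 12 h, and 10.00, 9.89 and 10.03 at 24 h. It rose by 0.47 at 6 h (adjusted p = 3.97e-05) and by 0.24 at 12 h (adjusted p = 0.00728). Its 0.20 at 24 h (adjusted p = 0.0221) was lost without any 1 of the 3 control arrays or the Ang II 24 h replicates 1 and 3 (adjusted p = 0.0513 to 0.078), and it was 0.17 after median centring (adjusted p = 0.0816).

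The protein disulfide isomerases themselves moved less. Pdia6, which acts with BiP, was at 12.01, 12.07 and 11.99 in control, 12.27, 12.29 and 12.31 at 6 h, 12.25, 12.26 and 12.23 at 12 h, and 11.93, 11.87 and 11.93 at 24 h. Its differences were 0.26 at 6 h and 0.22 at 12 h (SE 0.04, limma adjusted p = 0.000187 and 0.00124). Pdia6 fell by 0.38 from 6 h to 24 h (adjusted p = 1.02e-05), and its place below control at 24 h (-0.12, adjusted p = 0.0412) was lost without any 1 of 11 arrays, that is all but the Ang II 24 h replicate 1 (adjusted p = 0.0504 to 0.142). Pdia5 rose by 0.31 at 6 h (adjusted p = 0.000977). Its 0.17 at 12 h (adjusted p = 0.0455) was lost without any 1 of 9 arrays, that is all but the Ang II 12 h replicate 1 and the Ang II 24 h replicates 1 and 2 (adjusted p = 0.0525 to 0.17). Pdia4 (ERp72) was at 0.11 at 6 h (adjusted p = 0.0349), a call lost without any 1 array of either group (adjusted p = 0.0701 to 0.0909). At 12 h Pdia4 was at 0.15 (adjusted p = 0.0134), a call lost without the Ang II 12 h replicates 2 or 3 (adjusted p = 0.0513 to 0.0564). P4hb, the archetypal protein disulfide isomerase and a subunit of prolyl hydroxylase, was at 0.12 at 12 h (adjusted p = 0.0331), which was lost without any 1 array of either group (adjusted p = 0.052 to 0.12). Pdia3 (ERp57), the isomerase that works with the lectin chaperones, was at 0.11 and 0.12 at 6 and 12 h (adjusted p = 0.0758 and 0.0722), and without control replicate 1 both differences passed (0.14 and 0.15, adjusted p = 0.0279 and 0.0306). Ppib, cyclophilin B, a prolyl isomerase for collagen, was within 0.07 of control at all 3 times and passed at none.

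Of the stress sensors, their transcription factors and the proteases that free them, 2 of the 8 measured members (25.0%, against 18.6% of all genes) were higher and 3 (37.5%, against 17.2%) lower at 6 h. At 12 h 1 (12.5%, against 13.3%) was higher and 2 (25.0%, against 13.3%) lower, and at 24 h 2 (25.0%, against 15.3%) were higher and 1 (12.5%, against 14.7%) lower. Atf6, the gene of the sensor ATF6 alpha, rose more than any other member. Its log2 values were 10.33, 10.28 and 10.28 in control, 11.09, 11.22 and 11.15 at 6 h, 11.25, 11.30 and 11.28 at 12 h, and 10.65, 10.72 and 10.73 at 24 h. No group overlapped another, and all 9 Ang II arrays lay above the control. The differences were 0.86 ± 0.04 (1.81-fold, limma adjusted p = 3.19e-08), 0.98 ± 0.04 (1.97-fold, adjusted p = 2.29e-08) and 0.40 ± 0.04 (1.32-fold, adjusted p = 2.97e-05). The step of Atf6 from 6 h to 12 h was 0.13 and did not pass (adjusted p = 0.058). Atf6 passed in that step without the Ang II 6 h replicate 2 or the Ang II 24 h replicate 1 (adjusted p = 0.0334 to 0.0487). Its relative Atf6b, known as a weaker activator, was called against control at 24 h alone, by 0.23 (adjusted p = 0.0019), with 10.56, 10.65 and 10.59 in control and 10.84, 10.86 and 10.80 at 24 h. Its 24 h level was also above that at 12 h by 0.18 (adjusted p = 0.0113, but 0.13 and adjusted p = 0.0657 after median centring), and above that at 6 h by 0.14 (adjusted p = 0.0238), the last lost without the Ang II 6 h replicate 2 or the Ang II 24 h replicates 1 or 2 (adjusted p = 0.0535 to 0.0716).

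The proteases that cut ATF6 went the other way from Atf6 itself. Mbtps2, the site-2 protease, was at 10.40, 10.49 and 10.48 in control, 10.08, 9.98 and 10.06 at 6 h, 10.00, 9.96 and 10.09 at 12 h, and 10.25, 10.24 and 10.28 at 24 h. All 9 Ang II arrays lay below the control, and the 24 h arrays lay above those of the earlier times. The differences of Mbtps2 were -0.42, -0.43 and -0.19 (SE 0.05, limma adjusted p = 2.35e-05, 2.9e-05 and 0.00862). Mbtps1, the site-1 protease, was at 10.96, 10.95 and 10.93 in control, 10.68, 10.62 and 10.70 at 6 h, 10.61, 10.70 and 10.71 at 12 h, and 10.91, 10.81 and 10.87 at 24 h. It was at -0.28 at 6 h (adjusted p = 0.000271) and at -0.27 at 12 h (adjusted p = 0.000589), and its -0.08 at 24 h did not pass (adjusted p = 0.178). Creb3l2 (BBF2H7), a membrane-bound factor of the same family that these proteases also cut, was at 12.58, 12.54 and 12.53 in control, 12.23, 12.18 and 12.18 at 6 h, 12.44, 12.44 and 12.49 at 12 h, and 12.58, 12.58 and 12.55 at 24 h. It fell by 0.35 at 6 h (adjusted p = 1.3e-05), was at -0.09 at 12 h (adjusted p = 0.0962) and at 0.02 at 24 h. Creb3l1 (OASIS), its close relative, was within 0.10 of control throughout and passed in no comparison.

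Of the IRE1 and PERK arms, Xbp1 rose briefly and Eif2ak3 showed no called change. Xbp1, the factor whose mRNA IRE1 splices, was at 12.74, 12.72 and 12.77 in control and at 12.91, 12.91 and 12.88 at 6 h, a difference of 0.16 (limma adjusted p = 0.00715), and at -0.01 and -0.03 at 12 and 24 h. These values are gene totals on the array and do not separate spliced from unspliced Xbp1. Eif2ak3, which encodes PERK, was at 0.08, 0.01 and 0.04 (adjusted p = 0.305, 0.914 and 0.566).

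**Figure D4:**
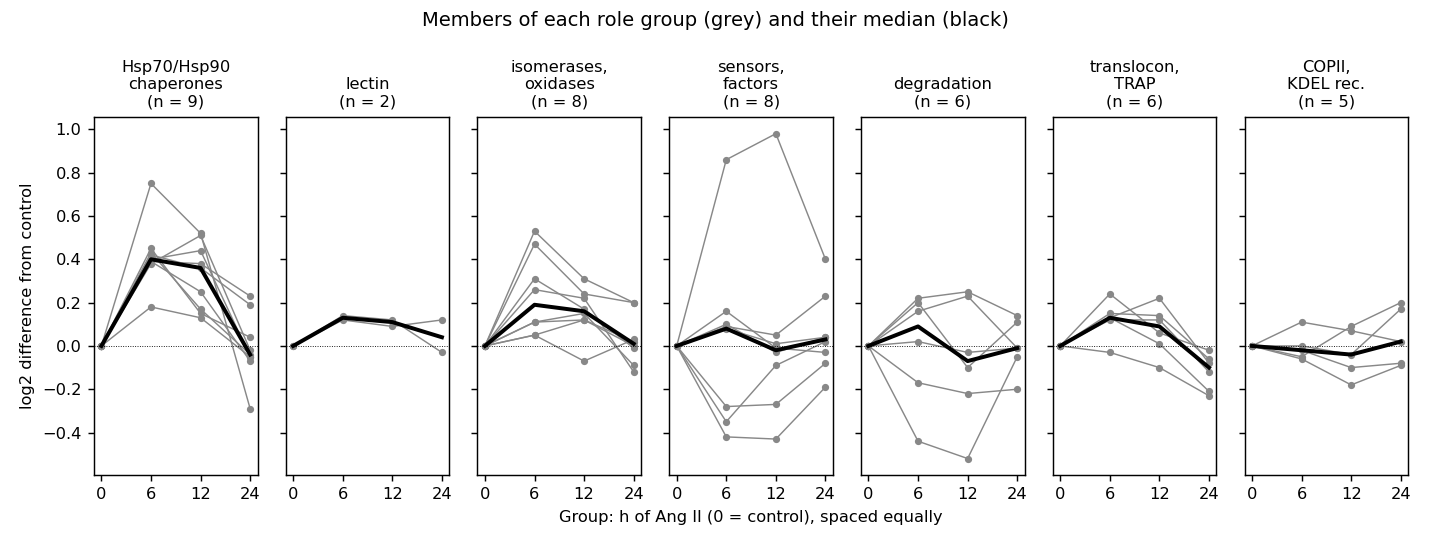
Log2 difference from the control mean at each Ang II time for every measured member (grey), with the median of its role group (black). The Hsp70 and Hsp90 group has medians of 0.40, 0.36 and -0.04, whereas the sensors and the degradation genes hold both Atf6 at up to 0.98 and Herpud1 at down to -0.52.

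The degradation genes, whose products retrotranslocate misfolded proteins and mark them with ubiquitin, split as well: 2 of the 6 measured members were higher and 2 lower at both 6 h and 12 h, and 1 was lower at 24 h. Herpud1, a membrane organiser of the ubiquitin ligase complex and a usual target of the unfolded protein response, went against the chaperones. Its log2 values were 10.78, 10.75 and 10.80 in control, 10.39, 10.22 and 10.40 at 6 h, 10.14, 10.30 and 10.34 at 12 h, and 10.81, 10.68 and 10.71 at 24 h. The 6 h and 12 h arrays lay below all control arrays, and the 24 h arrays overlapped them. Herpud1 was at -0.44 at 6 h and -0.52 at 12 h (SE 0.07, limma adjusted p = 0.000195 and 9.87e-05), was at -0.05 at 24 h (adjusted p = 0.624), and rose by 0.47 from 12 h to 24 h (adjusted p = 0.000264). Among the 3 holders of an ERSE-II, printed above, Dnajb11 and Hyou1 were thus higher at 6 and 12 h, and Herpud1 was lower.

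Sel1l, the adaptor of the ligase, and Syvn1 (HRD1), the ligase itself, rose together at 6 h and parted at 12 h. Sel1l was at 10.23, 10.23 and 10.22 in control, 10.45, 10.41 and 10.49 at 6 h, 10.45, 10.47 and 10.50 at 12 h, and 10.48, 10.29 and 10.33 at 24 h. It rose by 0.22 at 6 h and 0.25 at 12 h (limma adjusted p = 0.00411 and 0.00327), and its 0.14 at 24 h missed the threshold (adjusted p = 0.0544) but passed without the Ang II 24 h replicate 2 (0.18, adjusted p = 0.0307). Syvn1 was at 10.34, 10.30 and 10.37 in control, 10.53, 10.45 and 10.62 at 6 h, 10.22, 10.21 and 10.27 at 12 h, and 10.44, 10.43 and 10.47 at 24 h. It rose by 0.20 at 6 h (adjusted p = 0.00576), fell by 0.30 from 6 h to 12 h (adjusted p = 0.000584), and rose by 0.21 from 12 h to 24 h (adjusted p = 0.00635, but 0.17 and adjusted p = 0.0507 after median centring). Edem2, which trims mannose to mark proteins for degradation, was lower at all 3 times, at -0.17, -0.22 and -0.20 (adjusted p = 0.0467, 0.0173 and 0.0253), with weak support. Its 6 h call was lost without any 1 of 8 arrays, that is all but control replicate 3, the Ang II 12 h replicates 1 and 3 and the Ang II 24 h replicate 2 (adjusted p = 0.0527 to 0.171). Its later calls were lost without control replicates 1 or 2, the Ang II 12 h replicates 1 or 2 for 12 h (adjusted p = 0.0544 to 0.0692), and the Ang II 24 h replicate 2 for 24 h (adjusted p = 0.07 to 0.094). Derl3, a derlin of the exit channel, was at 0.23 at 12 h (adjusted p = 0.0238), which was lost without control replicates 2 or 3 or the Ang II 12 h replicate 1 (adjusted p = 0.0691 to 0.085). The signal of Derl3 was low, at 6.77 to 7.18 over all arrays, below the array medians of 7.22 to 7.32. Derl1, its relative, was within 0.03 of control and passed in no comparison.

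In the translocon and the TRAP complex, which pass new chains into the ER, 3 of 6 members were higher at 6 h, 1 at 12 h, and 2 were lower at 24 h. All 6 fell between 6 h and 24 h, with a median of -0.22. Sec61a1, the pore subunit, was at 12.60, 12.67 and 12.64 in control, 12.85, 12.92 and 12.86 at 6 h, 12.74, 12.66 and 12.70 at 12 h, and 12.67, 12.57 and 12.62 at 24 h. It rose by 0.24 at 6 h (limma adjusted p = 0.000897) and was at 0.06 and -0.02 later. Sec61g, a small subunit, was at 12.25, 12.30 and 12.29 in control and highest at 12 h, at 12.51, 12.49 and 12.48, a difference of 0.22 (adjusted p = 0.000905). Its 0.13 at 6 h (adjusted p = 0.0194) was lost without control replicate 1 or the Ang II 6 h replicates 2 or 3 (adjusted p = 0.0555 to 0.0765). Ssr2, a TRAP subunit, was at 12.38, 12.37 and 12.39 in control, 12.51, 12.49 and 12.53 at 6 h, 12.38, 12.37 and 12.43 at 12 h, and 12.15, 12.19 and 12.18 at 24 h. It thus lay above control at 6 h and below it at 24 h without overlap, by 0.13 (adjusted p = 0.0164) and -0.21 (adjusted p = 0.00106). Its 6 h call was lost without control replicate 2 or the Ang II 6 h replicate 3 (adjusted p = 0.0532 to 0.0593).

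The remaining members of this group were nearer to the threshold. Ssr3, another TRAP subunit, was at -0.23 at 24 h (limma adjusted p = 0.0149), which was lost without control replicate 1 (-0.17, adjusted p = 0.064). Its fall of 0.19 from 6 h to 24 h (adjusted p = 0.0252) was lost without the Ang II 6 h replicates 1 or 2 or the Ang II 24 h replicates 2 or 3 (adjusted p = 0.0523 to 0.0889). Ssr1, the TRAP subunit that binds calcium, was at 0.12 at both 6 h and 12 h (adjusted p = 0.0527 and 0.0524) and at -0.12 at 24 h (adjusted p = 0.0617). Both early differences of Ssr1 passed without the Ang II 6 h replicate 3 (adjusted p = 0.0334 and 0.0497), and it fell by 0.23 from 6 h to 24 h (adjusted p = 0.000967). Sec61b, a small subunit of the channel, was at 0.15, 0.14 and -0.06 and passed against control at no time. Its fall of 0.21 from 6 h to 24 h (adjusted p = 0.029) was lost without the Ang II 6 h replicates 1 or 2 or the Ang II 24 h replicate 2 (adjusted p = 0.0571 to 0.117).

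The export coat and the KDEL receptors did not follow the chaperones, and the measured coat genes were called higher than control at 24 h alone. No member of the 5 measured was called at 6 h, 1 was lower at 12 h and 2 were higher at 24 h. Sec24d, a cargo-binding subunit of the COPII coat known for procollagen export, was at 11.96, 11.95 and 11.96 in control, 11.88, 11.93 and 11.92 at 6 h, 12.04, 12.08 and 12.03 at 12 h, and 12.20, 12.12 and 12.15 at 24 h. The 24 h arrays were above all others, and the difference from control was 0.20 (SE 0.04, limma adjusted p = 0.00174). Sec31a, of the outer COPII coat, was at 11.65, 11.66 and 11.71 in control and at 11.87, 11.82 and 11.83 at 24 h, a difference of 0.17 (adjusted p = 0.00727), with 0.00 and -0.04 at the earlier times. Kdelr1, a receptor that returns escaped chaperones from the Golgi, fell by 0.18 at 12 h (adjusted p = 0.00432), from 13.03, 13.02 and 13.02 to 12.83, 12.81 and 12.87. Its -0.09 at 24 h (adjusted p = 0.0969) passed without the Ang II 24 h replicate 1 (-0.12, adjusted p = 0.0433). Kdelr2 and Kdelr3, the other KDEL receptors, passed in no comparison, with differences of -0.02, -0.10 and -0.08 for Kdelr2 and 0.11, 0.07 and 0.02 for Kdelr3. Under some alternatives Kdelr2 passed at 12 h and Kdelr3 at 6 h, as with array weights (-0.11 and 0.12, limma adjusted p = 0.0429 and 0.0424).

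Other genes of the pathway, 134 measured of 152 listed in 8 lists, were read in the same fit. Of all genes, 18.6% were called higher and 17.2% lower at 6 h, 13.3% each way at 12 h, and 15.3% and 14.7% at 24 h, and each list's counts stand beside these. The PERK arm, ATF4 and its targets had 4 of 17 genes higher and 6 lower at 6 h, 0 and 10 at 12 h, and 6 and 9 at 24 h, with medians of -0.09, -0.23 and -0.22 against 0.01, 0.01 and 0.05 for all genes. Atf3, a stress-induced repressor, fell at all 3 times, to -1.48, -1.64 and -1.36 (limma adjusted p = 1.26e-05, 9.42e-06 and 4.13e-05). Chac1, which degrades glutathione, fell to -0.84 at 6 h and -0.94 at 12 h (adjusted p = 1.11e-06 and 7.29e-07), and was at -0.12 at 24 h. Without control replicate 2 that 24 h value was -0.19 (adjusted p = 0.05). Cytosolic and mitochondrial chaperones had 8 of 20 genes higher and 3 lower at 6 h, 2 and 7 at 12 h, and 3 and 8 at 24 h. Hsph1, a cytosolic nucleotide exchange factor of Hsp70, rose by 0.88, 0.59 and 0.54 (adjusted p = 4.31e-09, 2.02e-07 and 4.39e-07), and St13, an Hsp70 cochaperone, fell to -0.32, -0.45 and -0.26 (adjusted p = 2.57e-05, 2.98e-06 and 0.000269).

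Closer to the members in function, the other partners of ER Hsp70 had 3 of 10 genes higher and 2 lower at 6 h, 3 and 1 at 12 h, and 4 and 0 at 24 h. Wfs1, the ER membrane protein wolframin, rose by 0.83, 0.64 and 0.38 (limma adjusted p = 2.58e-08, 4.13e-07 and 3.29e-05), whereas Creld1, the relative of Creld2, fell to -0.34 at 6 h and -0.23 at 12 h (adjusted p = 0.000299 and 0.00672). N-glycosylation and glycan trimming had 5 of 17 genes higher and 0 lower at 6 h, 7 and 1 at 12 h, and 3 and 2 at 24 h. Alg2, a mannosyltransferase of the lipid-linked precursor, rose by 0.77 at 6 h and by 0.43 at 12 h (adjusted p = 1.08e-06 and 0.000217), and Tusc3, a subunit of oligosaccharyltransferase, by 0.29 and 0.45 (adjusted p = 0.000712 and 4.51e-05). At 24 h Alg2 was at 0.20 and Tusc3 at 0.18 (limma adjusted p = 0.0251 and 0.0208). These 24 h calls were lost without any 1 of 5 arrays for Alg2 and of 3 for Tusc3 (adjusted p = 0.0502 to 0.0873). The other degradation genes had 7 of 15 higher and 2 lower at 6 h, 2 and 1 at 12 h, and 5 and 0 at 24 h. Herpud2, the relative of Herpud1, fell to -0.57 at 6 h and -0.28 at 12 h (adjusted p = 3.93e-07 and 0.000283). Man1b1, a mannosidase that marks glycoproteins, rose by 0.40, 0.27 and 0.19 (adjusted p = 2.64e-05, 0.00103 and 0.0091).

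Signal recognition, the other translocon genes and signal peptidase had 5 of 15 genes higher and 1 lower at 6 h, 4 and 0 at 12 h, and 2 and 1 at 24 h, with medians of 0.08, 0.05 and 0.03. Sec61a2, a second pore gene, was higher by 0.37 at 6 h (limma adjusted p = 0.0013), and Tram1, a translocon partner, by 0.33 (adjusted p = 3.41e-05). Sec61a2 was also called at 12 h (0.28, adjusted p = 0.0123) and 24 h (0.24, adjusted p = 0.0232). Tram1 was also called at 24 h (0.14, adjusted p = 0.0212). Each of these later calls was lost without any 1 of 2 or 3 arrays (adjusted p = 0.0512 to 0.0827). The other COPII, COPI and cargo receptor genes had 6 of 20 higher and 0 lower at 6 h, 1 and 2 at 12 h, and 2 and 2 at 24 h. Preb, which loads the GTPase of the COPII coat, rose by 0.30 at 6 h (adjusted p = 0.000438). It was at 0.17 at 24 h (limma adjusted p = 0.0209), a call lost without any 1 of 3 arrays (adjusted p = 0.0605 to 0.0872). Mcfd2, a cargo receptor partner, was at 0.29 at 6 h (adjusted p = 0.0114), a call lost without control replicate 2 (0.25, adjusted p = 0.0502). Collagen-modifying enzymes and other foldases had 4 of 20 genes higher and 4 lower at 6 h, 3 and 3 at 12 h, and 2 and 6 at 24 h. Plod2, a lysyl hydroxylase of collagen, fell to -0.46 at 6 h and -0.43 at 12 h (adjusted p = 4e-06 and 1.2e-05). Its -0.16 at 24 h (limma adjusted p = 0.0164) was lost without control replicate 1 (-0.14, adjusted p = 0.0654). Prdx4, the peroxiredoxin of the ER, was at -0.49 at 24 h (adjusted p = 0.00172). Its -0.26 at 6 h (limma adjusted p = 0.0473) was lost without any 1 of 9 arrays (adjusted p = 0.0515 to 0.139).

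**Figure D5:**
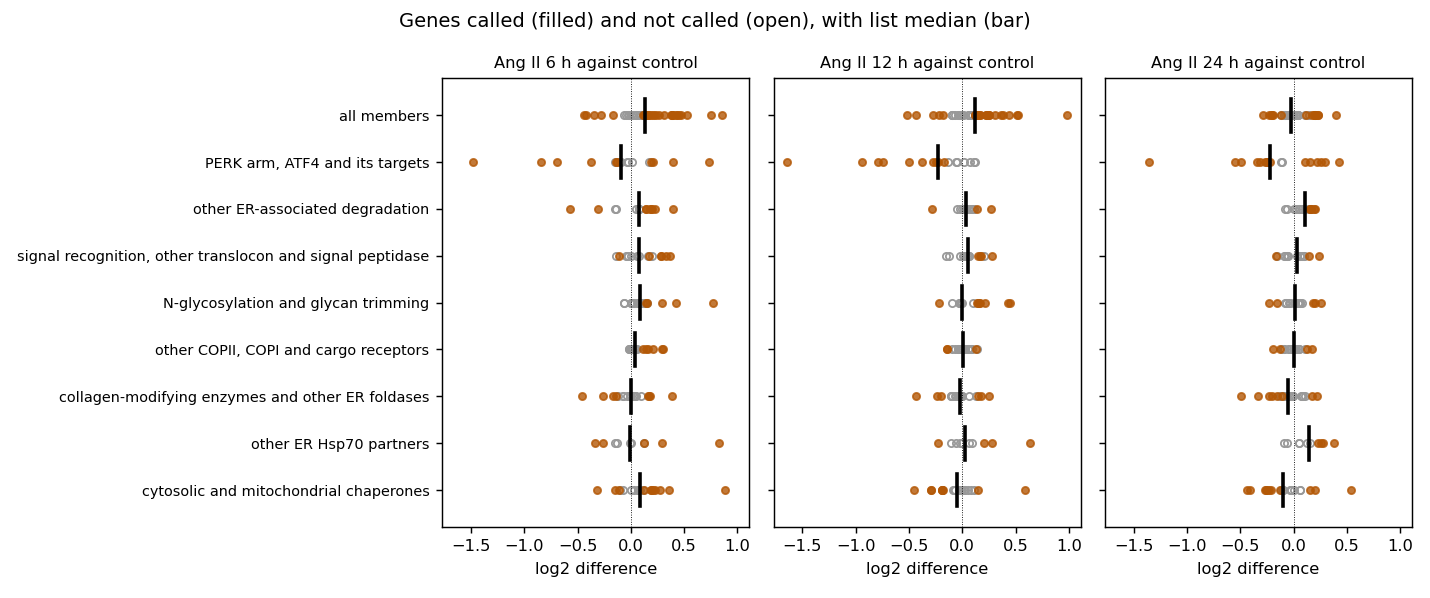
Log2 difference from control of each measured gene at 6, 12 and 24 h for the 44 members and the 8 other lists, filled where limma called it and open where not, with the list median as a bar. The median of the members is 0.13 at 6 h and -0.02 at 24 h, and that of the PERK and ATF4 list is -0.09 and -0.22.

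Across the whole series the array medians lay between 7.22 and 7.32 (log2), and no array was left out. Precision is limited by there being 3 arrays a group, and the median SE over genes was 0.0667. The defining smooth muscle markers were present, with a summed log2 level over 10 genes of 123.1 to 123.4 in control, 123.8 to 124.2 at 6 h, 124.8 to 125.1 at 12 h and 127.2 to 127.4 at 24 h, and 9 of the 10 were higher at 24 h. The 7 endothelial markers summed to 43.0 to 44.6 and the 8 leukocyte and macrophage markers to 50.5 to 51.5, and array signals have no true zero. These sums can hide opposite moves. Of the 10 smooth muscle markers, 4 were higher and 3 lower at 6 h (-0.24 to 0.48). At 12 h, 6 were higher and 1 was lower (-0.17 to 0.63). Of the endothelial markers 2 were lower at 6 h and at 12 h, and 1 was higher and 1 lower at 24 h (-0.91 to 0.68). Of the leukocyte and macrophage markers 1 was lower at 24 h, where the lowest difference was -1.01. The 8 fibroblast markers summed to 74.0 to 74.5 in control and to 70.3 to 71.1 on the Ang II arrays, with 5 of the 8 lower at each time. These marker levels moved with the groups compared, and their part in the results on the members was not tested. In RNA from whole cultures, fewer cells of a type and less RNA per cell cannot be told apart.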

How the data were processed

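The values used are the log2 values deposited by the authors, 1 per probe set and array, for which the submitters' processing notes name Partek and RMA. The versions, the summary level and any filter were not given in the sources used here. Probe sets were named through the platform annotation: of 29214 probe sets, 15310 had 1 gene symbol, 323 had several and 13581 were not listed. A gene with several probe sets was read from the brightest, by its mean over the 12 arrays. Arrays were grouped by their titles, and no array was left out.

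Groups were compared with limma 3.58.1 (lmFit and eBayes, 8 residual degrees of freedom) in R 4.3.3, in 1 fit of 4 group means, two-sided, with Benjamini-Hochberg adjustment over 14506 genes per comparison and a threshold of 0.05. The script was tested on simulated data. Tables, motifs and figures were made in Python 3.11.15. The members and lists were chosen with earlier results of these data known. The rule for naming genes took up to 4 members per role group by size of called change, those opposite to their group, those called at no time and 2 genes per other list; the remaining members were named to account for all. Tried as alternatives were each array left out, the replicate number as a block, only the 2 groups of a comparison, a filter on dim genes, averaging all probe sets of a gene, quantile normalization, median centring, trended and robust variance, array weights and a 1.5-fold minimum. Leaving out the 3 arrays of narrowest spread (replicate 2 of 6 h, replicate 1 of 12 h, replicate 2 of 24 h) was chosen after seeing the data.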

Additional observations from a re-analysis of the deposited data

Results flagged for a closer look

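In 3 members limma called the gene higher than control at 6 or 12 h and lower than control at 24 h, and the difference between those Ang II times passed too. Creld2 was at 0.75 at 6 h and 0.52 at 12 h and at -0.29 at 24 h, with differences of -1.03 for 24 h against 6 h (limma adjusted p = 7.06e-08) and -0.80 for 24 h against 12 h (adjusted p = 1.69e-06). Pdia6 was at 0.26, 0.22 and -0.12, with differences of -0.38 (adjusted p = 1.02e-05) and -0.34 (adjusted p = 6.92e-05). The 24 h call of Pdia6 against control (limma adjusted p = 0.0412) was lost without any 1 of 11 arrays (adjusted p = 0.0504 to 0.142). Ssr2 was at 0.13 at 6 h and -0.21 at 24 h, a difference of -0.33 (adjusted p = 1.65e-05). The 6 h call of Ssr2 was lost without control replicate 2 or the Ang II 6 h replicate 3 (limma adjusted p = 0.0532 to 0.0593). After quantile normalization that 6 h difference was 0.07 (adjusted p = 0.165). No group had more than 3 arrays, so single arrays were not screened as outlying.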

How the results depend on the processing

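Among the named genes, no difference changed sign under an alternative where it was called as reported or under that alternative. Differences called in neither, the other listed genes and the balance of higher and lower counts were not checked for direction. With a 1.5-fold minimum, members higher and lower numbered 2 and 0 at 6 h, 1 and 0 at 12 h, 0 and 0 at 24 h, 0 and 0 for 12 h against 6 h, 0 and 1 for 24 h against 12 h, and 0 and 1 for 24 h against 6 h, and all genes called numbered 997, 536, 562, 409, 353 and 942, against 5191, 3855, 4358, 3910, 3983 and 5688 without the minimum. Members lower at 24 h numbered 6, and 13 after quantile normalization, 11 with trended and robust variance and 3 without the 3 arrays of narrowest spread. Members higher at 12 h than at 6 h numbered 3, and 1 in a fit of those groups only, 5 with the filter on dim genes and 6 with trended and robust variance. Members higher at 24 h than at 12 h numbered 7, and 3 after median centring. Leaving out each array in turn gave 19 to 23 members higher and 4 to 5 lower at 6 h, 14 to 19 and 4 to 5 at 12 h, 7 to 9 and 3 to 7 at 24 h, 1 to 4 and 7 to 11 for 12 h against 6 h, 6 and 15 to 19 for 24 h against 12 h, and 6 to 7 and 20 to 24 for 24 h against 6 h. Over the same omissions all genes called numbered 4533 to 5300, 3176 to 3964, 3510 to 4372, 3223 to 4048, 3145 to 3982 and 4850 to 5743. Of 7908 alternative values for the named genes, 7281 kept their side of the threshold, 488 lost the call and 139 gained it. For the 132 comparisons of members with control, calls lost and gained numbered 6 and 12 after quantile normalization, 5 and 3 after median centring, 7 and 0 with only the groups compared, 0 and 17 with trended and robust variance, 0 and 14 with the filter on dim genes (129 comparisons, since the filter removed Derl3), 0 and 6 with array weights and 10 and 2 without the 3 arrays of narrowest spread. The causes of these moves were not tested.

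Whether the shared replicate numbers pair the arrays could not be settled. Deviations from the group means correlated at -0.103 to 0.299 between arrays of the same number (median 0.027, over 0.1 in 3 of 18 pairs). Between others they correlated at -0.28 to 0.257 (median -0.02, over 0.1 in 5 of 36 pairs). With 3 arrays a group, such correlations cannot exclude shared cultures or batches. With the replicate number as a block, the member counts stayed within 1.5 times those reported, and among the comparisons of members with control the calls lost were Edem2 and Pdia4 at 6 h (adjusted p = 0.0582 and 0.0599), Calr, P4hb and Pdia5 at 12 h (0.058, 0.0595 and 0.0558) and Pdia6 at 24 h (0.068), all by limma.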
